A study of Mus musculus with 8 samples.

Results

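Cdx1, Cdx2 and Cdx4 are the 3 mouse homologues of the Drosophila gene caudal. Each of the 3 was represented by 1 probe, chosen by the gene name printed on the array, among 36406 gene names and 55681 probes in all. Their transcripts were measured in E14 mouse embryonic stem (ES) cells, clone E14Tg2A.4, which were either left untreated or treated with retinoic acid (RA). Each condition held 4 biological replicates of this single line, and total RNA of each was hybridized alone to a 1-colour Agilent expression array. The labels give 72 h of stimulation for the RA group, and the study's methods name 1 µM all-trans RA without LIF, the cytokine that keeps ES cells self-renewing. Addition of RA and removal of LIF therefore cannot be told apart if the untreated cells were kept in LIF. Both conditions carried the same genome, with no transgene or deletion named in the labels. The question put to these arrays was how the caudal genes and the programmes around them stood in self-renewing cells and after 3 days of RA-induced differentiation.

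Cdx proteins are homeodomain transcription factors of the ParaHox family. In the embryo they act downstream of Wnt, Fgf and RA signals in the posterior epiblast and the tail bud, where they activate Hox genes of the trunk and pattern the axial skeleton. Cdx1 is a direct target of RA receptors. Cdx2 in addition specifies the trophectoderm of the blastocyst, and both Cdx1 and Cdx2 maintain the intestinal epithelium of the adult, whereas Cdx4 acts in the tail bud and in embryonic blood formation.

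A level in this text is the log2 of the processed intensity of a spot minus the 75th percentile of its array, so that 0 is the brightness of the spot at that percentile. Levels of one probe were compared between arrays, and the levels of different probes were not ranked against each other. A gene was called changed at an adjusted p under 0.05 with limma and a fold change above 1.5. At this threshold 34.6% of all probes were called, 12.9% as higher and 21.6% as lower after RA. The median change of all probes was -0.28 on the log2 scale, and quantile normalization, which moved that median to -0.0026, gave 8152 probes higher and 8704 lower in place of 7196 and 12044. Between 56.7% and 62.7% of the spots of an array were well above background. The 8 arrays came from 2 slides, and each slide carried 2 untreated and 2 RA-treated samples.

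The promoters of Cdx2 and Cdx4 are printed, the Cdx genes with a window among the promoter sequences used. Of the motifs searched, an octamer, ATGCAAAT, the letters bound by POU factors, was found in both. The transcript of the POU factor Pou5f1 was measured on the same arrays. The 250 bases upstream of each RefSeq transcription start on GRCm38.p6 are given 5′ to 3′ on the strand of the gene, chr5:147307250-147307499 (minus strand) for Cdx2 and chrX:103321148-103321397 (plus strand) for Cdx4, with the octamer in capitals. No window of Cdx1 was among these sequences, so its promoter was not searched.
Cdx2: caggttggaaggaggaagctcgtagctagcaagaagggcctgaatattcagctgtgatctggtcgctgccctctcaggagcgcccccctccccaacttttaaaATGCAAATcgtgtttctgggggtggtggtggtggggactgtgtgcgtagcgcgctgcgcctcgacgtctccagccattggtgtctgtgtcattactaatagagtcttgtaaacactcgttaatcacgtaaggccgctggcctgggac
Cdx4: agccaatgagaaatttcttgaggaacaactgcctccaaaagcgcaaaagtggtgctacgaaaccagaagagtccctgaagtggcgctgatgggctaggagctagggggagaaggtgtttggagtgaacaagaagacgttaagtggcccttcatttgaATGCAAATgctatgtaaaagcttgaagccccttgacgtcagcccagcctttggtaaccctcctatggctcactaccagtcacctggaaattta
The octamer lay at -147 to -140 in the Cdx2 promoter and at -93 to -86 in the Cdx4 promoter, and 1.6% of 32851 promoter windows of RefSeq genes held it on either strand. Neither window held the RA receptor half-sites AGGTCA or GGGTCA, the Tcf and Lef core CTTTGA or the caudal core TTTATNG, which are found in 14%, 11.6%, 13.8% and 9.81% of the windows. A CCAAT box, present in 33.8% of the windows, stood at -72 to -68 on the minus strand of the Cdx2 window and at -248 to -244 in that of Cdx4. The Cdx4 window held in addition 2 half-sites TGACG of the cAMP response element. They overlap on opposite strands between -61 and -54 and together read TGACGTCA. A half-site alone is found in 17.8% of the windows, and the share of windows with the joined letters was not counted. These matches describe letters and not bound sites.

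Cdx2 rose 8.10-fold after RA. Its probe (NM_007673, mm9, chr5:148112547-148112606, minus strand) was well above background on all 8 arrays. In untreated cells the level was -3.26, -3.74, -3.80 and -3.79 in replicates 1 to 4. After RA it was -0.22, 0.06, -0.94 and -1.41. The lowest RA-treated array thus lay above the highest untreated one, a separation that 15.3% of all genes showed in the same direction. The mean went from -3.64 ± 0.26 to -0.63 ± 0.67 (SD, n = 4 each), a log2 fold change of 3.02 with a standard error of 0.32 and a 95% interval from 4.89-fold to 13.4-fold (adjusted p = 0.000119, limma). Only 800 of the 36406 genes had a larger increase.

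The size of the Cdx2 change differed between background corrections. The processed intensities lay between 53.7 and 80.9 in untreated cells, against 389 to 1010 after RA. With normexp background correction the log2 fold change was 2.22, and in the log2 values processed by the authors it was 2.32, both still called. Within the slides, each with 2 arrays per condition, it was 2.72 and 3.32.

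Cdx1 did not pass the test. Its probe (NM_009880, mm9, chr18:61178558-61178617, minus strand) was also well above background on all 8 arrays. Untreated replicates 1 to 4 had levels of 0.02, -0.53, -1.78 and -0.85. The RA-treated replicates had levels of -0.88, -1.11, -0.22 and -0.19. The conditions overlapped, and every RA-treated value lay inside the range of the untreated ones. The mean was -0.79 ± 0.75 in untreated and -0.60 ± 0.46 in RA-treated cells (SD, n = 4 each). The log2 fold change of 0.19 had a standard error of 0.38, and its 95% interval ran from 0.62-fold to 2.09-fold (adjusted p = 0.706, limma). An increase above 2.09-fold lay outside this interval, whereas a change of 1.5-fold lay within it.

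The spread of Cdx1 came mostly from the untreated cultures, whose highest and lowest values differed 3.47-fold. This SD was larger than that of 95.2% of the 21801 genes well above background on all untreated arrays. Untreated replicate 3 was the lowest, and without it the log2 fold change of Cdx1 was -0.14, which was not called either. The spots were bright, with processed intensities of 298 to 782 in untreated and 442 to 903 in RA-treated cells. On the first slide the difference was 0.35 and on the second 0.03.

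Cdx4 was not well above background on any of the 8 arrays. Its differences are given as measured, and no fold change of the transcript is read from them. Its probe (NM_007674, mm9, chrX:100525392-100525451, plus strand) gave -5.41, -5.34, -6.39 and -5.30 in untreated replicates 1 to 4. After RA the values were -7.72, -7.55, -7.52 and -7.70. All RA-treated values lay below all untreated ones, as for 25.3% of the genes on the array. The raw spots measured 54.8 to 62.5 in untreated and 37.5 to 48.7 in RA-treated cells, over local backgrounds of 26 to 35. By the less strict flag of the scanner software, 4 of 4 untreated and 1 of 4 RA-treated spots were significantly above background. On 3 of the 4 RA-treated arrays the scanner software had put its own floor value in place of the signal. The fit gave an adjusted p of 0.000279 (limma), but with normexp correction the difference was only -0.48 on the log2 scale and in the authors' values -0.27, neither past 1.5-fold. The measured means were -5.61 and -7.62, both under or near the lowest signal well above background, which was -5.77 to -5.20 depending on the array.

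**Figure D1:**
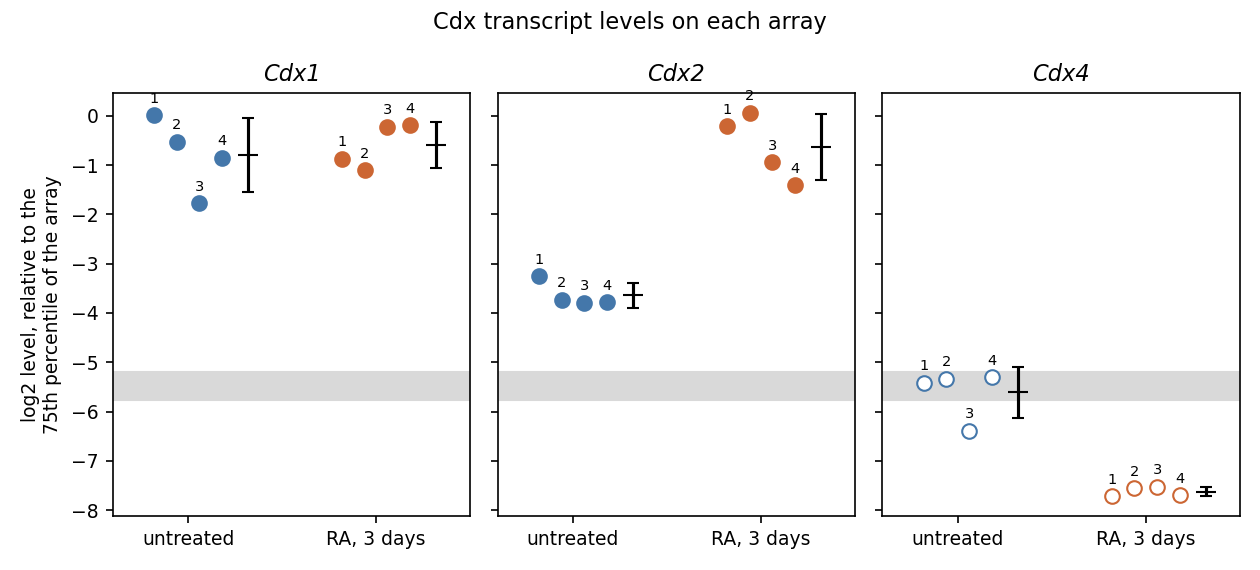
The log2 level of Cdx1, Cdx2 and Cdx4 on each array, relative to the 75th percentile of that array, in untreated (blue) and RA-treated (orange) ES cells. Numbers are replicates, filled circles are spots well above background, open circles are not, bars show the mean ± SD of 4 replicates, and the grey band spans the lowest signal well above background on the 8 arrays. The conditions are apart for Cdx2, overlap for Cdx1, and lie in or under the grey band for Cdx4.

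**Figure D2:**
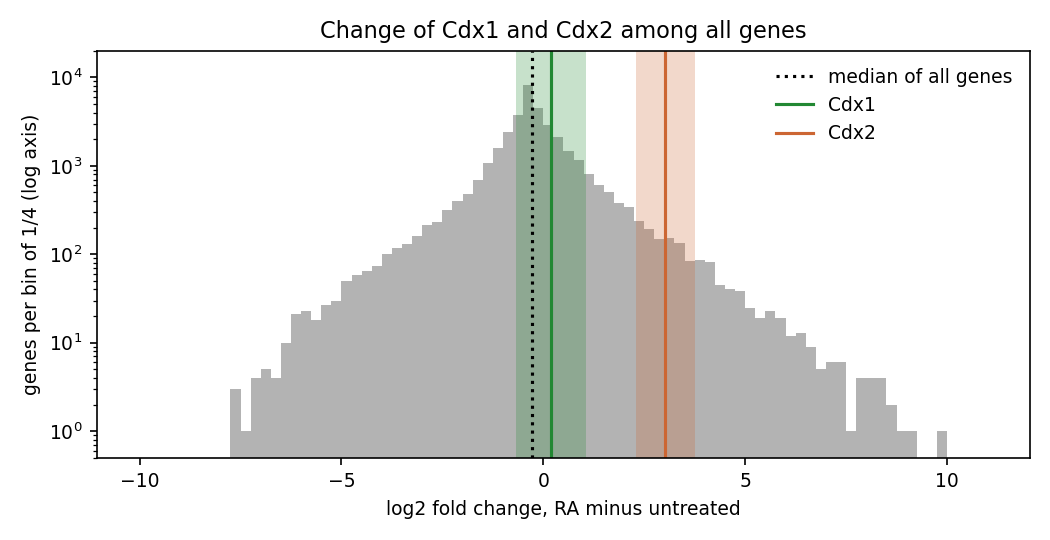
Distribution of the log2 fold change (RA minus untreated) over 36406 genes, each by its brightest probe, in narrow bins of equal width with a logarithmic count axis. Lines mark Cdx1 at 0.19, Cdx2 at 3.02 and the median of all genes at -0.28, and shading marks the 95% intervals of the Cdx genes.

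The changes of Cdx1 and Cdx2 were then compared with each other within each array, a difference that the scaling of the arrays cannot alter. The level of Cdx2 minus that of Cdx1 was -3.27, -3.21, -2.02 and -2.93 in untreated replicates 1 to 4. It was 0.66, 1.17, -0.72 and -1.22 after RA. These numbers carry the brightness of the probes in their offset, so that only their shift between the conditions is read. The mean moved from -2.86 ± 0.58 to -0.03 ± 1.13 (SD, n = 4 each), which is 7.11-fold more for Cdx2 than for Cdx1. With normexp correction the shift was 2.08 on the log2 scale instead of 2.83. The conditions did not overlap (p = 0.0286 in a two-sided exact permutation test, adjusted p = 0.0286 over 3 pairs of genes), and this is the smallest p that 4 against 4 arrays allow. Without untreated replicate 1 or without untreated replicate 2 the shift was 2.69 and 2.72 on the log2 scale with an adjusted exact p of 0.0571. With the replicate numbers as pairs, the exact sign-flip p was 0.125, the smallest that 4 pairs allow. No shift is read from the other 2 pairs, since Cdx4 was not well above background on any array.

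The 4 RA-treated cultures differed among themselves in Cdx1 and Cdx2. Cdx2 was highest in replicates 1 and 2 and lowest in replicate 4, and its SD of 0.67 was larger than that of 95.2% of the 21980 genes well above background on all RA-treated arrays. Cdx1 was lowest in replicates 1 and 2. The pattern does not follow the slides, since replicates 1 and 4 shared one slide and replicates 2 and 3 the other. The log2 of the summed level of the trunk Hox genes (groups 4 to 9) was 3.82, 2.94, 5.22 and 5.15 in RA-treated replicates 1 to 4, and that of the RA response genes was 7.06, 7.20, 8.03 and 7.80. Replicates 3 and 4 were thus the highest for Cdx1 and for both lists. The pluripotency markers summed to 4.45, 5.57, 4.28 and 3.72, highest in the replicate with the most Cdx2. Eomes, the T-box factor of trophectoderm and early mesoderm, varied between the same cultures with levels of -0.75, 0.33, -2.31 and -3.16. It was highest in replicates 1 and 2, as Cdx2 was. The summed level of the trophectoderm list was 9.21, 9.24, 8.91 and 9.01, and that of the caudal epiblast and tail bud list 5.71, 6.19, 4.86 and 5.09. Both were highest in replicates 1 and 2 as well. The trophectoderm sum is carried mostly by Krt18 and Krt8, at 8.44 and 7.60 in replicate 1. The primitive endoderm markers summed to 7.46, 7.15, 7.13 and 7.11. The mean log2 level, in which each gene counts alike, was 0.85, 0.86, 0.50 and 0.27 for trophectoderm. For the caudal list it was -2.3, -1.9, -2.7 and -2.6, again highest in replicates 1 and 2. Within the caudal list not every gene followed this order. T, the defining gene of the primitive streak, had -5.56, -4.23, -5.44 and -4.50, and the Wnt agonist Rspo3 had 1.36, 0.93, 1.31 and 1.91. With 4 cultures these co-variations are given as values only, and their part in the spread of Cdx1 and Cdx2 was not tested. The arrays measured whole cultures, so that fewer cells expressing a gene and less RNA per cell cannot be told apart.

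**Figure D3:**
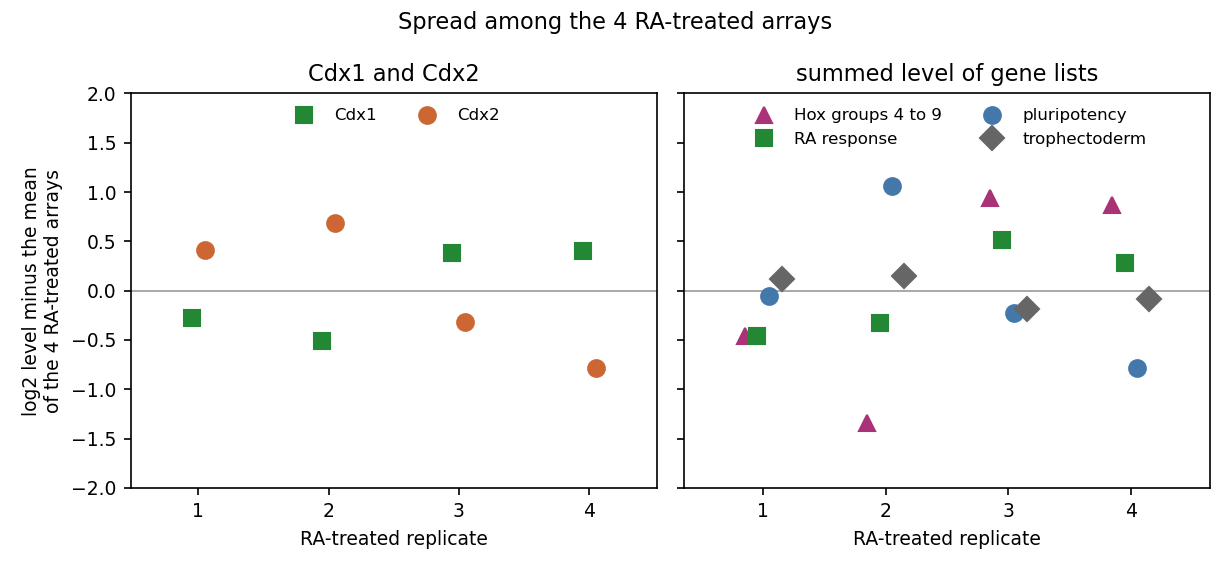
Deviation of the log2 level of each RA-treated array from the mean of the 4 RA-treated arrays, for Cdx1 and Cdx2 (left) and for the log2 of the summed level of 4 gene lists (right). Cdx2 lies above its mean in replicates 1 and 2 and below it in replicates 3 and 4, and Cdx1, the RA response genes and the Hox genes of groups 4 to 9 do the reverse.

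Among 14690 candidate genes, the profiles most like that of Cdx1 over the 8 arrays, after each was centred on its own mean, were those of Zswim9 (named 6330408A02Rik on the array), Fhod3 and Ntn1, with root mean square differences of 0.247, 0.250 and 0.272 on the log2 scale. All 3 were lowest in untreated replicate 3, as Cdx1 was, a feature that their selection on the same 8 arrays favours. Ntn1, which encodes the guidance protein netrin-1, had a level of -2.05 there and of -0.62 to 0.17 in the other untreated replicates. Fhod3, a formin of the actin cytoskeleton, had 0.45 there and 1.37 to 1.79 in the others. Closest to Cdx2 by the same measure were Rin3, Nxf7 and Nkain3, whose increase after RA was fixed by this selection. Nkain3, with a difference of 0.248, was well above background on all arrays and went from -4.91 ± 0.38 to -1.70 ± 0.50 (SD, n = 4 each). Rin3 and Nxf7 were not well above background on any untreated array and became candidates only through the RA-treated ones, so that neither their likeness nor their rank is read. Each was at least 2.25-fold higher after RA.

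The RA signal that lies upstream of Cdx1 in the embryo was read from 14 RA response genes, of which 12 were called higher and 1 lower, with a median log2 fold change of 3.81. Over all genes by their brightest probe 13.9% were called higher and 22.1% lower, and the median was -0.28. Rarb, which encodes the RA receptor beta, went from -4.86 ± 0.28 to 2.35 ± 0.88 (SD, n = 4 each), a log2 fold change of 7.21 ± 0.40 (SE, adjusted p = 5.31e-06, limma). Cyp26a1 and Cyp26b1, which encode enzymes that degrade RA, rose by 6.09 and 5.23 on the log2 scale. Hoxb1, dim on all untreated arrays, was at least 25.8-fold higher. Such bounds hold for the processed intensity as used here, and for Hoxb1 normexp correction gave a smaller fitted log2 change of 2.95. Rarg, the RA receptor gamma, was the one called lower, at -2.73. Cdx1 was thus not called at 72 h on arrays on which most other genes of RA response were. Earlier times were not measured.

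The genes of the caudal epiblast and tail bud, in which Cdx genes act, held calls in both directions. Of 28 genes, 10 (35.7%) were called higher and 7 (25%) lower, against 13.9% and 22.1% of all genes, with a median of -0.08. The share called lower is near that of all genes. Of the genes called lower, 1, Mixl1, was not well above background on any array. Rspo3, a Wnt agonist, went from -4.56 ± 0.24 to 1.38 ± 0.41 (SD, n = 4 each), a log2 fold change of 5.93 ± 0.23 (SE, adjusted p = 1.56e-06, limma). Cited1, a transcriptional co-regulator, rose by 4.59. Among the genes that respond to Wnt signals, Sp5 rose by 4.31 and Axin2 by 1.76, while Lef1 at 0.04 and Tcf7 at -0.20 were not called. Fgf4, a growth factor of ES cells and of the primitive streak, fell by 6.08, and Fgf17 was at least 9.13-fold lower, though only at -1.62 on the log2 scale in the authors' values. Mesp2 and Dll1, both of the segmentation programme, fell, with log2 fold changes of -2.89 and -1.53. T, which encodes brachyury and is the defining gene of the streak, was at -4.16 ± 0.56 and -4.93 ± 0.66 (SD, n = 4 each) and was not called (adjusted p = 0.143, limma). Wnt3a, the Wnt ligand of the tail bud, was not well above background on any array.

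The other ParaHox genes showed no increase. Gsx1, a homeobox gene of the ventral brain, had levels of -2.34, -2.61, -2.66 and -2.81 in untreated replicates 1 to 4. After RA it had -5.28, -3.98, -5.63 and -7.23, a log2 fold change of -2.93 (SE 0.57, adjusted p = 0.00359, limma) with no overlap. Its levels after RA include 1 array not well above background, and with the authors' values the difference was smaller, at -1.25. Gsx2 was not called at -0.49 (adjusted p = 0.237, limma), and Pdx1, the pancreatic member, was not well above background on any array.

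The Hox genes, the best known targets of Cdx proteins, are described by their position in the clusters. All 8 genes of groups 1 to 3 were called higher, against 13.9% of all genes, and 5 of them were measured only as a lower bound. With these at their bound the median log2 fold change was 4.52. Hoxb2 rose by 7.63 and Hoxa3 by 6.96, and Hoxa2 and Hoxb3 were at least 49.6-fold and 20.4-fold higher, with smaller log2 changes of 3.90 and 3.04 under normexp correction. Of the 19 genes of groups 4 to 9, the trunk genes, 17 were called higher and none lower, against 13.9% and 22.1% of all genes, with a median of 4.49 when the 7 genes known only by a bound were set to it. Hoxb4 went from -3.76 ± 0.66 to 2.67 ± 0.94 (SD, n = 4 each), a log2 fold change of 6.42, and Hoxc9 rose by 6.16. Hoxc9 was well above background on only 2 untreated arrays, and with normexp correction its change was 3.87. With the same correction the change was 5.67 for Rarb and 5.75 for Hoxb2, all still called. Hoxa5 and Hoxb5, dim on all untreated arrays, were at least 30.8-fold and 29.8-fold higher, and had smaller log2 changes of 3.54 and 3.56 under normexp correction. The 2 genes of these groups that were not called were Hoxa6 at -0.70 and Hoxa9 at 0.27, named here because they are the exceptions. Hoxa6 had one high untreated value, -1.53 in replicate 2, against -5.18 to -4.85 in the others.

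Of the 12 posterior Hox genes of groups 10 to 13, 8 were not well above background on any array, which leaves few that could be measured. Called were 2 higher and 2 lower, 16.7% each, near the 13.9% and 22.1% of all genes. Hoxc13 went from -0.79 ± 0.33 to -2.14 ± 0.10 (SD, n = 4 each), a fall of 1.35 on the log2 scale (SE 0.19, adjusted p = 0.000494, limma). Hoxd13 rose by 1.25 (SE 0.35, adjusted p = 0.0205, limma), a call that was lost without untreated replicate 4 (1.12), RA replicate 1 (1.13) or RA replicate 4 (1.13). The other 2 calls were Hoxa11 and Hoxa13, neither well above background on any array. The trunk and the posterior groups were not tested against each other.

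Of the genes of trophectoderm, the lineage specified by Cdx2 in the blastocyst, 11 of 20 (55%) were called higher and 2 (10%) lower, against 13.9% and 22.1% of all genes, with a median of 1.35 when Elf5 was set to its bound. The keratin genes Krt8 and Krt18, which are expressed in trophectoderm and in many simple epithelia, rose by 5.63 and 5.12. Krt7 rose by 5.84. Plac1, a gene of the placenta, went from -6.31 ± 0.73 to 0.39 ± 0.55 (SD, n = 4 each), although it was well above background on only 1 untreated array, and its change of 6.70 was 3.87 with normexp correction. Gata3 and Hand1, transcription factors of the trophoblast, rose by 4.33 and 4.35, and Elf5 was at least 2.70-fold higher. Eomes went from -1.90 ± 0.37 to -1.47 ± 1.56 (SD, n = 4 each) and was not called (adjusted p = 0.625, limma). Tfap2c (Tcfap2c on the array), another trophoblast factor, fell by 2.26, and Tpbpa, a marker of the spongiotrophoblast, was not well above background on any array. Ascl2 at -0.68 and Prl3d1 at 0.15 were not called.

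Of 22 intestinal genes 5 were called higher and 5 lower, 22.7% each, against 13.9% and 22.1% of all genes, and with normexp correction 3 were higher. On no array were 7 of them well above background, among them Slc15a1, 1 of those called lower. Krt20, a keratin of the villus, rose by 6.61 (SE 0.38, adjusted p = 5.74e-06, limma). Lgals4, a galectin, rose by 2.52, a call lost when any one of untreated replicates 1 and 4 and RA replicates 1, 2 and 3 was left out, with 1.94 the smallest value. Gpa33, a surface antigen of gut epithelium, fell by 3.61. Of the genes that Cdx2 is known to activate in the gut, Sis was at least 3.79-fold lower, Cdh17 and Muc2 were not well above background on any array, and Vil1 was not called at -0.34. Isx was called higher at 2.04, but was well above background on only 1 untreated array, and its conditions overlapped, with -4.42 in untreated replicate 2 and -4.61 in RA replicate 4.

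Of 13 genes of embryonic blood, 1 (7.69%) was called higher and 6 (46.2%) lower, against 13.9% and 22.1% of all genes. In the authors' values 3 were called lower. Gata2 rose by 3.19, and Etv2, Tal1 and Klf1 fell, with log2 fold changes of -3.56, -2.89 and -2.07. In the authors' values Klf1 was no longer called, at -0.54, and Tal1 was at -1.23. Hbb-bh1, an embryonic globin, was not called at -0.66.

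Markers of the cell types that such cultures can hold moved with the treatment as well. All 12 pluripotency markers were called lower, against 22.1% of all genes. Pou5f1 and Nanog, core factors of self-renewal, fell by 5.54 and 4.55, and Tdgf1, Dppa3 and Esrrb fell, with log2 fold changes of -6.30, -6.0 and -5.75. The log2 of their summed level was 8.71 to 9.13 in untreated and 3.72 to 5.57 in RA-treated cells, with all 12 well above background on every array. All 12 primitive endoderm markers were called higher, against 13.9% of all genes, among them Foxa2 by 5.03 and Dab2 by 3.82, and Ttr was at least 37.3-fold higher, with a smaller log2 change of 3.48 under normexp correction. Their summed level went from between 5.37 and 5.81 to between 7.11 and 7.46. Of 11 neural markers 5 (45.5%) were called higher and 1 (9.09%) lower. Pax3, well above background on 3 untreated arrays, rose by 4.19 (2.44 with normexp correction) and Nes by 2.10, whereas Tubb3 fell by 2.22. Zic1 rose by 4.14 on its brightest probe, while its other probe went the opposite way. The part of these cell types in the increase of Cdx2 was not tested.

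**Figure D4:**
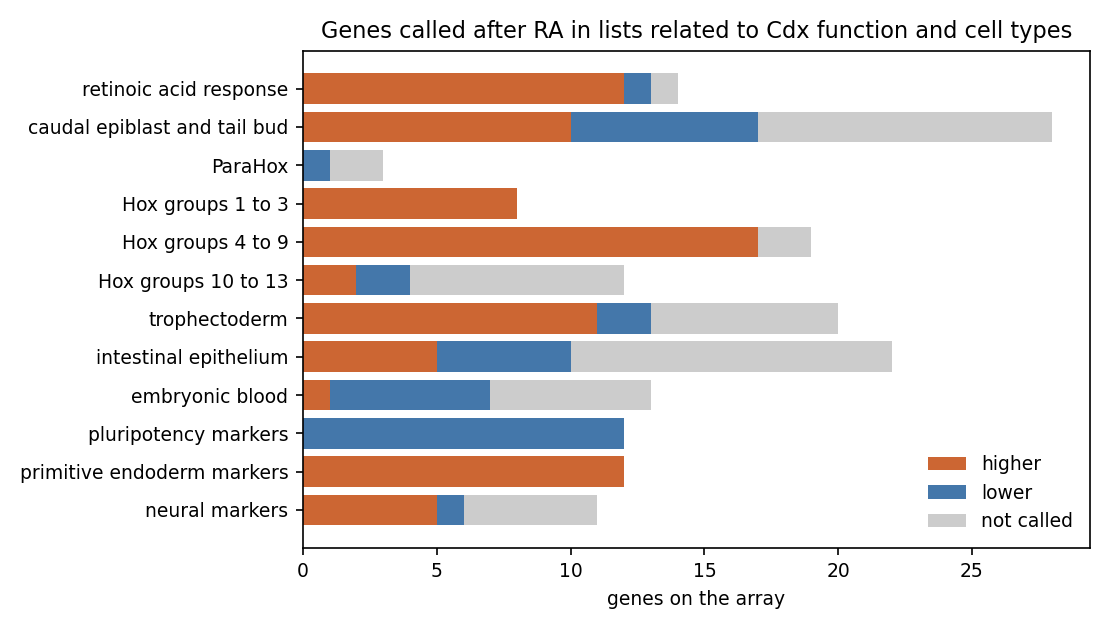
Number of genes called higher (orange), called lower (blue) or not called (grey) after RA in each of the 12 lists, at an adjusted p under 0.05 and a fold change above 1.5. All genes of Hox groups 1 to 3 and of primitive endoderm are orange, all pluripotency markers are blue, and the caudal and intestinal lists hold both colours.

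**Figure D5:**
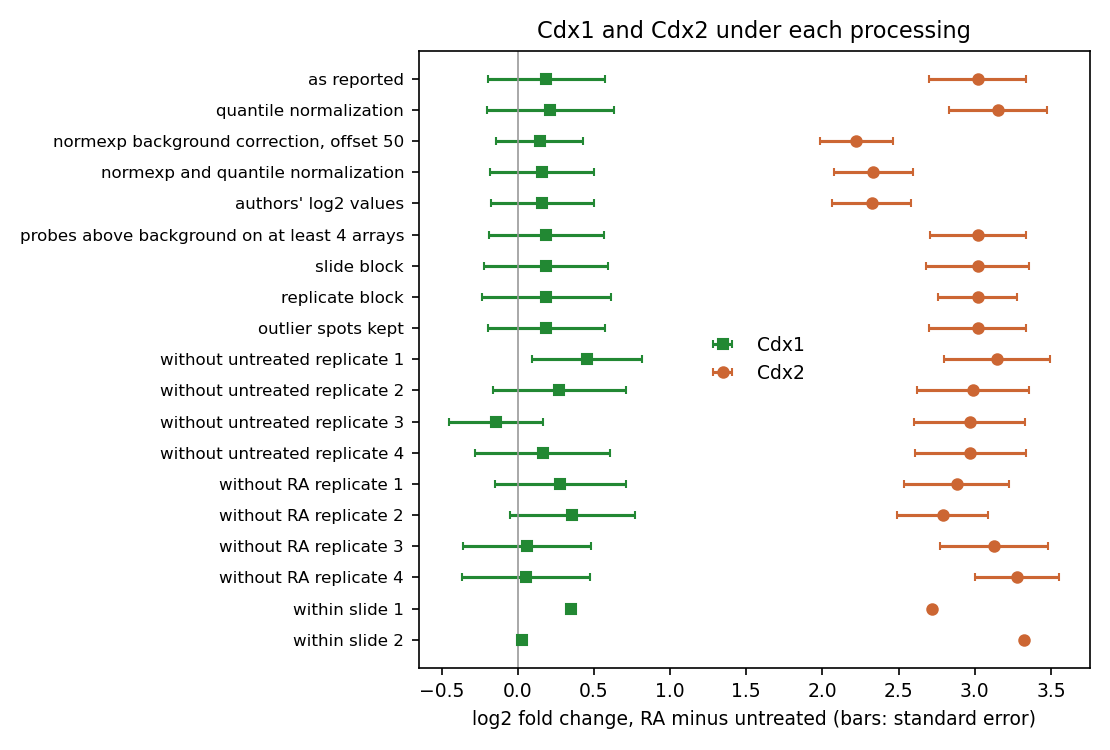
Log2 fold change (RA minus untreated) of Cdx1 (green squares) and Cdx2 (orange circles) as reported and under each other processing, left-out array or slide, with standard errors where a model was fitted. Cdx2 stays between 2.22 and 3.32, and Cdx1 between -0.14 and 0.45.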

How the data were processed

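The authors deposited the output of Agilent Feature Extraction (version 10.7.3.1) for each array, with a processed intensity (background-subtracted and detrended, not normalized between arrays), raw intensities and flags, and a table of log2 values with the same median on all 8 arrays (6.76), whose background correction and normalization are not given in the sources used here. The methods give a 1.5-fold change and an FDR of 0.05 as thresholds, which were kept. In R (version 4.3.3), log2 of the processed intensity minus the 75th percentile of the 59305 spots that are not controls was fitted over 55681 probes with limma (version 3.58.1; lmFit, eBayes), with Benjamini-Hochberg adjustment. Controls (3671 spots) did not enter the fit, nor did the 124 to 145 outlier-flagged spots of each array. A gene took its brightest probe. Standard errors and intervals come from the fit, and intervals are at 95%. Where a probe was not well above background on any array of 1 condition, the fold is a lower bound, the mean of the other condition against, per array, the higher of the probe's signal and the lowest one well above background. A probe well above background on only some arrays of a condition is given by its fitted change. A summed level is the log2 of the summed linear levels of a list.

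The same-numbered arrays of both conditions deviated together (correlations of 0.104 to 0.189, against at most 0.142 for different numbers), so the labels' replicate numbers were taken as pairs in an alternative with a replicate block. The other alternatives were quantile normalization, normexp correction (offset 50), both together, the authors' values, a filter to probes well above background on at least 4 arrays, the slide as a block, outlier spots kept and each replicate left out. On simulated data for RA against untreated, 143 of 200 changed probes (log2 change of 2) were recovered and 3 unchanged ones called among 55681. In the data 34.6% of the probes were called, a far larger share. The Benjamini-Hochberg adjustment depends on that share, so the simulated recovery does not give the recovery in the data.

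The members and the 12 lists (174 entries, all matched) were chosen with earlier results of these data known. Named were the Cdx genes, up to 4 called genes per list with the largest change, all of lists of 3 genes, Pou5f1, Nanog, Rarb, Cyp26a1, T and Eomes, and the 3 profiles most like each Cdx gene. Further members of the lists were named after their values were seen. One gene chosen by this rule is not reported here. The number of arrays limits the precision.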

Additional observations from a re-analysis of the deposited data

Results flagged for a closer look

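In 9 of 114 groups of 4 arrays 1 value stood apart from the other 3 by more than the 95% critical value of Dixon's ratio of gap to range, where chance gives about 1 in 20, or 5.7. For Cdx2, untreated replicate 1 had a level of -3.26 against -3.80 to -3.74 in the others, and the increase after RA was 3.15 without it. For Cdx4, untreated replicate 3 had -6.39 against -5.41 to -5.30, none of them well above background. Among other genes, untreated replicate 1 stood apart for Hoxa2 (-5.94, others -7.50 to -7.27) and Foxa2 (0.01, others -1.04 to -0.91). Untreated replicate 3 stood apart for Hoxa3, at -5.56 against -4.46 to -4.26. RA replicate 2 stood apart for Fgf17 (-5.65, others -7.87 to -7.74) and for Ttr (-1.40, others 0.15 to 0.22). RA replicate 3 had -6.18 for Tal1 against -5.24 to -5.13, and RA replicate 4 had 2.55 for Lgals4 against 3.24 to 3.35. None of the Cdx spots was saturated or marked as an outlier.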

How the results depend on the processing

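Cdx2 was called higher and Cdx1 was not called under every alternative in which a model was fitted, with adjusted p of 7.51e-06 to 0.000687 for Cdx2 and 0.378 to 0.928 for Cdx1 (limma). With 1 array left out, the change was 2.79 to 3.28 for Cdx2 and -0.14 to 0.45 for Cdx1. Cdx4 fell short of 1.5-fold with normexp (-0.48), normexp and quantile normalization (-0.28) and the authors' values (-0.27), where the measured shift of Cdx1 against Cdx4, which rests on spots not well above background, was 0.63, 0.44 and 0.43 (adjusted p = 0.143, 0.257 and 0.257, exact permutation test). With the replicate block the shift of Cdx2 against Cdx1 (2.83) had an exact p of 0.125, the measured differences that involve Cdx4 (2.20 and 5.03) are not read as shifts because that probe was not well above background, and the block ended no limma call of a named gene and moved no count of calls past 1.5 times. Leaving out 1 array gave a shift of Cdx2 against Cdx1 of 2.43 to 3.23. In Hox groups 10 to 13 there was 1 gene lower with quantile normalization and 1 lower and 1 higher with normexp, normexp and quantile normalization, the authors' values and the filter on dim probes, with 1 to 3 higher when 1 array was left out. Intestinal genes called higher were 3 with normexp and 3 to 5 with 1 array left out. Genes of embryonic blood called lower were 3 with normexp and quantile normalization and with the authors' values, under which Klf1 was at -0.56 and -0.54. Neural markers called lower were 1 or 2 with 1 array left out. Probes called lower were 6603 with normexp and quantile normalization and 6575 in the authors' values, against 12044. Lgals4 was not called with quantile normalization (2.58, adjusted p = 0.0503, limma). The cause of these differences was not tested. Signal over background limits Cdx4 in both conditions, and each gene given as a bound in the condition where it was not well above background.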
